A study of Homo sapiens with 4 samples.

Results

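The zinc-finger genes of human chromosome 19 were taken as every row of the deposited count table whose name is ZNF, a number and at most a single closing letter, and whose first listed chromosome is 19. There were 252 such genes among 35211 rows, and a further 275 rows with names of the same form lay on other chromosomes. Of the 252, 237 are protein coding, 12 are pseudogenes and 3 had no biotype under their name in the annotation used. They lie between bases 2819874 and 58481230 of chromosome 19 (build hg38, the lowest start and highest end in the deposited table), 136 on the plus strand and 116 on the minus strand. An exon base was shared with another row of the table by 139 of them, and reads there cannot be told apart by gene without a stated strand setting.

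Most of these genes encode proteins with a KRAB domain followed by a tandem array of C2H2 zinc fingers. The fingers bind DNA, often within transposable elements, and the KRAB domain recruits the corepressor TRIM28 (KAP1), which brings the histone methyltransferase SETDB1 and heterochromatin proteins to the site. The genes arose by tandem duplication and sit side by side in clusters along chromosome 19, which can themselves be packed as heterochromatin.

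RNA was sequenced after ribosomal RNA depletion in the established human prostate cancer lines DU145 and PC3. Transfection was with either the negative control plasmid or an overexpression plasmid for circ0003553, a circular RNA for whose gene the sample titles give RCAN3. Each of the 4 combinations was represented by 1 library, so the lines were compared over both plasmids and the plasmids over both lines. The labels do not say that the libraries came from separate cultures, and the p-values measure only the spread between these libraries.

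Library totals ranged from 33438509 to 39488890 counts, and 3 counts, taken as the detection floor, corresponded to 0.0760 to 0.0897 CPM (counts scaled to the library total). The zinc-finger genes took 0.182% and 0.189% of the counts in DU145 and 0.204% and 0.215% in PC3. RCAN3 went from 639 counts with the control plasmid to 816 with circ0003553 in DU145, and from 1212 to 3798 in PC3. It rose by a log2 of 0.95 ± 0.16 (SE, adjusted p = 0.0148) with the plasmid, although a gene's count holds its circular and linear RNA alike. CTNNA1, which PC3 is known to have lost, had 15074 and 15131 counts in DU145 against 139 and 212 in PC3. The epithelial markers KRT8, KRT18, KRT19 and EPCAM were present in all 4 libraries, CDH1 was low in PC3 with 84 and 108 counts, and the leukocyte marker PTPRC had at most 2 counts. The monocyte marker CD14 was low but higher in PC3, at 26 and 17 counts against 8 and 2 in the DU145 libraries (log2 difference 2.25 ± 0.61, SE, adjusted p = 0.00453). Of the fibroblast and endothelial markers, COL1A1 (216 and 124 counts in DU145, 1153 and 1519 in PC3) and PECAM1 (10 and 14, then 585 and 595) were higher in PC3, while DCN, PDGFRB, VWF and CDH5 had at most 14 counts, and their part in the results was not tested.

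More of the zinc-finger genes differed between DU145 and PC3 than did not. Of the 252, 236 passed the filter on low counts and 179 of these (75.8%) were called at an adjusted p below 0.05 in edgeR's quasi-likelihood test, against 66.0% of all 21731 genes tested. In PC3, 84 were lower (35.6%, against 32.9% of all genes), 95 were higher (40.3%, against 33.1%) and 57 were not called. The shares were thus near those of the table as a whole, and the directions differed in size. The called genes that were lower in PC3 had a median log2 difference of −2.42, and those that were higher had 1.22. Among genes more than 10-fold apart, with genes at 0 set to the floor of 3 counts, 32 were lower in PC3 and 1, the pseudogene ZNF702P, was higher. These medians and 10-fold counts are given for the zinc-finger genes only, and whether they are particular to these genes was not tested. The other 16 genes had at most 14 counts in any library and were not tested.

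The levels themselves were low in both lines. The median gene had 0.821 RPKM (counts scaled to gene length and library total) as the mean of the DU145 libraries and 0.853 RPKM as the mean of the PC3 libraries, and 107 and 115 genes reached 1 RPKM. The highest was ZNF146, which encodes a protein of zinc fingers with no KRAB domain, with 7119 and 7565 counts in the DU145 control and circ0003553 libraries and 3817 and 4434 in PC3, the last 2 equal to 27.5 and 27.1 RPKM. Both DU145 libraries lay above both PC3 libraries for ZNF146 (log2 difference −0.73 ± 0.10, SE, adjusted p = 1.44e-05). Next came ZNF317 at 9.29 to 14.6 RPKM, ZNF787 at 8.23 to 15.0 RPKM, ZNF428 at 5.87 to 15.5 RPKM and ZNF480 at 4.75 to 13.0 RPKM over the 4 libraries. These 4 genes were higher in both PC3 libraries than in both DU145 libraries.

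**Figure D1:**
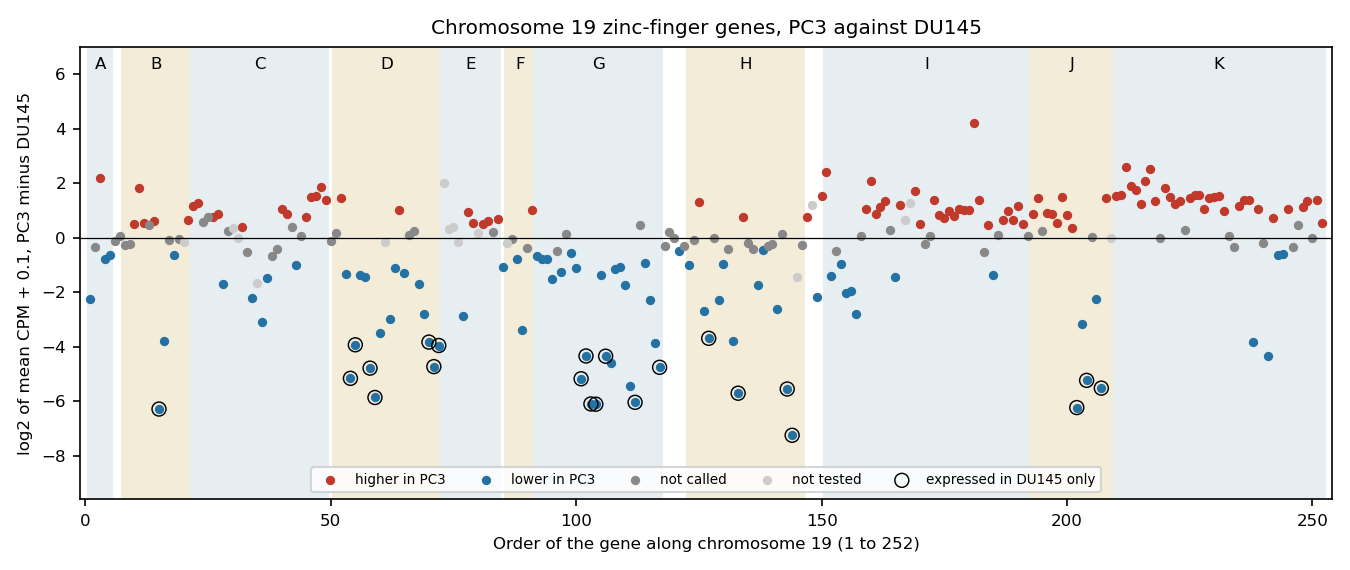
The 252 genes in their order along chromosome 19 (horizontal axis) against the log2 of mean CPM plus 0.1 in PC3 minus that in DU145 (vertical axis). Shaded blocks are the 11 clusters A to K, colours give the edgeR call, and rings mark the 22 genes expressed in DU145 only, which lie in clusters B, D, G, H and J and are absent from I and K.

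A group of the genes was read in DU145 and close to unread in PC3. With expression in 1 line only taken as at least 1 CPM in both libraries of that line and at most 0.1 CPM in both libraries of the other, 22 genes were expressed in DU145 only, out of 218 that reached 1 CPM in both libraries of a line (10.1%). Over all genes the same rule gave 303 of 17478 (1.73%). No zinc-finger gene of chromosome 19 was expressed in PC3 only, where the rule gave 1.74% of all genes. For the zinc-finger genes of other chromosomes the counts were 7 (2.92%) in DU145 only and 5 (2.08%) in PC3 only of 240, and for the other genes of chromosome 19 they were 29 (2.83%) and 4 (0.391%) of 1023. These shares are descriptions of 4 libraries and carry no test. Whether the DNA of these genes is present in PC3 was not tested.

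In the 22 genes the PC3 libraries held 0 to 2 counts each, and 10 genes were at 0 in both. The DU145 control library held 58 to 495 counts with a median of 161, and the DU145 circ0003553 library 43 to 634 with a median of 148. The rule itself keeps the lines from overlapping for any of the 22 genes. Both strands were equally represented, with 11 genes each. Moving the upper limit to 0.5 CPM gave 28 of 229 genes (2.37% of all genes), and allowing 0.2 CPM in PC3 gave 24 of 218 (2.55% of all genes). With limits of 0.5 and 0.05 RPKM there were 16 of 189 (2.05% of all genes). Leaving out zinc-finger genes that share an exon base with another row left 8 of 90 (1.67% of all genes without those left out). Just outside the rule, ZNF570 had 253 and 232 counts in DU145 against 0 and 4 in PC3, and ZNF737 had 36 and 41 against 0 and 0.

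**Figure D2:**
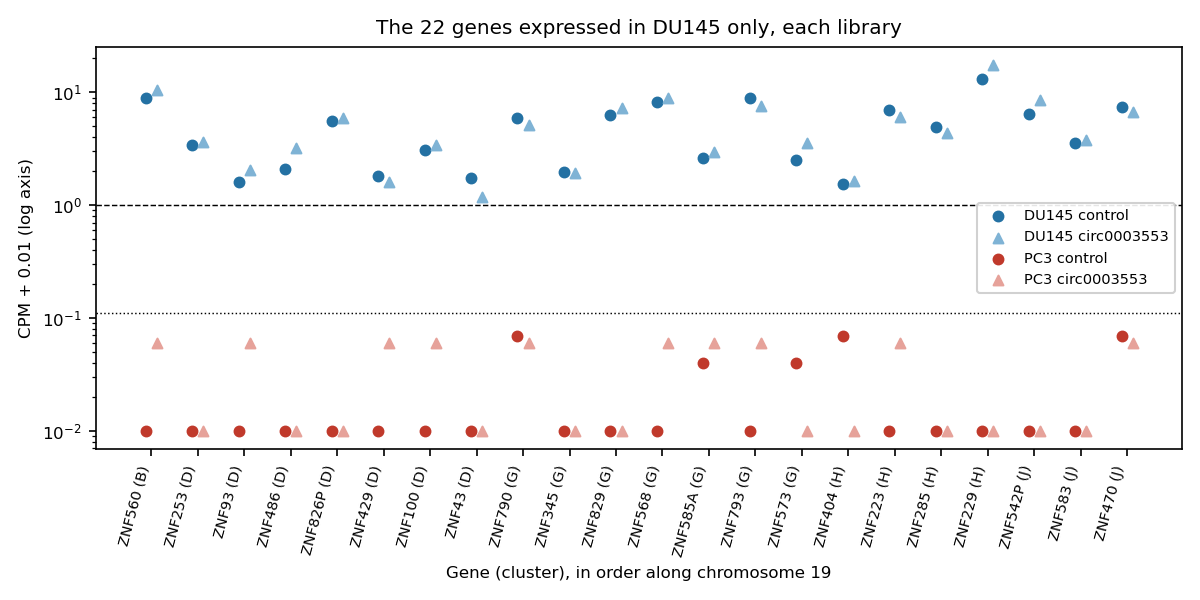
CPM plus 0.01 on a log axis for each of the 22 genes expressed in DU145 only, with 1 point for each library. The dashed line is at 1 CPM and the dotted line at 0.1 CPM, both drawn with the added 0.01. All DU145 points lie above the dashed line and all PC3 points below the dotted line, as the rule that picked the genes requires.

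With a gap of over 500000 bases between neighbouring starts as the border, 239 of the 252 genes fell into 11 clusters of at least 5 genes, lettered A to K from the short-arm end. None of the 252 was at 0 counts in all 4 libraries. Any gene without a row in the deposited table does not enter the gaps, clusters and neighbours described here. The calls were spread unevenly among the clusters. In cluster D (19.7 to 21.9 Mb) 16 of 21 tested genes were lower in PC3 and 2 higher, and in cluster G (36.2 to 37.8 Mb) 23 of 26 were lower and 0 higher. In cluster I (51.6 to 53.6 Mb) 25 of 40 were higher and 7 lower, and in cluster K (57.2 to 58.5 Mb) 31 of 43 were higher and 4 lower. Of the 22 genes expressed in DU145 only, 21 lay in clusters D, G, H and J, and the other, ZNF560, in cluster B.

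**Figure D3:**
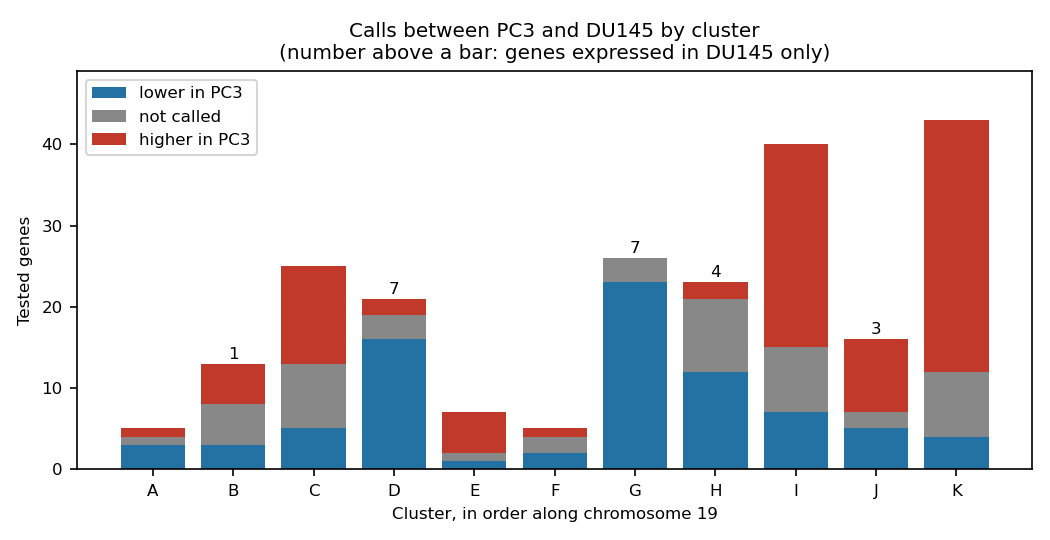
Tested zinc-finger genes in each cluster (bar height), split into those lower in PC3, not called and higher in PC3. The number over a bar counts the genes expressed in DU145 only. Cluster G has 23 of 26 lower in PC3 and cluster K has 31 of 43 higher.

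Cluster G held 7 of the DU145-only genes, and 4 of them were direct neighbours between bases 36817428 and 36998700. The first, ZNF790 (minus strand), had 224 and 189 counts in the DU145 control and circ0003553 libraries and 2 and 2 in PC3, a ratio of DU145 to PC3 of 96.2 (26.4 to 802, 95% exact conditional binomial interval on halved counts). ZNF345 (plus strand) had 74 and 70 counts in DU145 against 0 and 0 in PC3, at least 22.4-fold higher in DU145 against a floor of 3 counts in each PC3 library. ZNF829 (minus strand) had 238 and 267 counts against 0 and 0, at least 78.4-fold higher in DU145. ZNF568 (plus strand) had 314 and 326 counts against 0 and 2, a ratio of 298 (53.1 to 1.18e+04). The starts of ZNF829 and ZNF568 lie 38 bases apart on opposite strands, so both genes of that head-to-head pair were read in DU145 and close to unread in PC3. ZNF790 and ZNF345 are arranged in the same way, with spans that overlap by 426 bases and no shared exon base.

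Interleaved with these were genes read in both lines. ZNF420, the next gene after ZNF568, had 135 and 117 counts in DU145 against 46 and 43 in PC3 (log2 difference −1.39 ± 0.27, SE, adjusted p = 3.44e-04). It was lower in PC3 and clearly above the floor. Beyond it, ZNF585A had 99 and 107 counts in DU145 against 1 and 2 in PC3, and its closely similar neighbour ZNF585B had 330 and 259 against 7 and 10. Reads of ZNF585A and ZNF585B may be split between them by the counting. ZNF383, whose start overlaps that of ZNF585B on the other strand, had 49 and 53 counts in PC3 against 128 and 114 in DU145. ZNF793 had 337 and 274 counts against 0 and 2, and ZNF573, at the end of the cluster, had 95 and 129 against 1 and 0. ZNF461 and ZNF540 were not called, with 101 and 72 counts against 86 and 99, and 20 and 14 against 26 and 22. From ZNF567 to ZNF793, 14 neighbouring genes in a row were called lower in PC3, of which ZNF567, ZNF850, ZNF383 and ZNF527 were not called by DESeq2.

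The promoters of genes on both sides of that contrast are given here. They show the sequence at the starts of genes expressed in DU145 only and of a neighbour read in both lines. Which starts were used was not measured. Each is 300 bases from RefSeq (GRCh38.p14), 250 before the start and 50 after it, 5′ to 3′ on the gene's own strand, with CG dinucleotides in capitals. ZNF829 (chr19:36916242-36916541, minus strand, 27 CG) and ZNF568 (chr19:36916082-36916381, plus strand, 25 CG) overlap. ZNF345 (chr19:36850626-36850925, plus strand, 14 CG) was the other gene of the run shown, and ZNF420 (chr19:37078183-37078482, plus strand, 30 CG) is the neighbour read in both lines. The RefSeq starts of ZNF345 and ZNF420 lie inside the spans that the deposited table gives these genes, past their first bases. Where RefSeq lists several starts of a gene, the first in its table is shown.
ZNF829: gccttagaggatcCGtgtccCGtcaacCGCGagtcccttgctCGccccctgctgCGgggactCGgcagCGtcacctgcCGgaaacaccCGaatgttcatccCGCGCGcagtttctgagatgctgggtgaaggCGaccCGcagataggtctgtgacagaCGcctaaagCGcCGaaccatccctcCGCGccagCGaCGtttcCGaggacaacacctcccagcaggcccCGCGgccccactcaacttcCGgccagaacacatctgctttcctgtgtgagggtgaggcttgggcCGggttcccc
ZNF568: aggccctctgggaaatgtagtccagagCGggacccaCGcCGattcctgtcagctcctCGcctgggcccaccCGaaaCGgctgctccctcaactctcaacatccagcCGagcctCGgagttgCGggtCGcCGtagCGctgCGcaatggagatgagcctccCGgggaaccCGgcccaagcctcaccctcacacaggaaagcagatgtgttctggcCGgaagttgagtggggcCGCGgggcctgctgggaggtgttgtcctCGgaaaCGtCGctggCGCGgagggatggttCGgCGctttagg
ZNF345: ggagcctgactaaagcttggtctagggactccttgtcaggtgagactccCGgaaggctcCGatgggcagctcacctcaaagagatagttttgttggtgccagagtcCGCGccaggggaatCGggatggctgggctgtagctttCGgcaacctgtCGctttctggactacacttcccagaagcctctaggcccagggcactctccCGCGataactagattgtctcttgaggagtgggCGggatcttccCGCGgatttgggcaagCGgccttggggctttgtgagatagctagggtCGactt
ZNF420: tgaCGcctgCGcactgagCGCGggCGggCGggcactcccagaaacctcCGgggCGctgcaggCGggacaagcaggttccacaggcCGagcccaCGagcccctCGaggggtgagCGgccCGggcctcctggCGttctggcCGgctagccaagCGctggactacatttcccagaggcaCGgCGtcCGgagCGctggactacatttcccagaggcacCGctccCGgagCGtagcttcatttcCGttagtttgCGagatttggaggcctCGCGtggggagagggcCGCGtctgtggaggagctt

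A promoter was matched for 212 of the 252 genes and for 18 of the 22 expressed in DU145 only. In those 18 the number of CG dinucleotides had a median of 16.5 and ranged from 2 to 27, against a median of 20.5 in the 194 other matched genes and 14 in all 35116 promoters of the table. The letters CCAAT, searched on both strands, stood in 9 of the 18, in 53.6% of the 194 and in 34.6% of all promoters. TATAAA, searched on both strands, stood in 1 of the 18, in 1.55% of the 194 and in 11.5% of all. None of the 4 promoters printed above holds CCAAT or TATAAA. Methylation of these CG sites was not measured in these libraries.

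Cluster D, which lies near the centromere on the short arm, also held 7 of the DU145-only genes. ZNF253 had 129 and 131 counts in the DU145 libraries against 0 and 0 in PC3, at least 40.4-fold higher in DU145. ZNF93, known for repressing LINE-1 elements, had 61 and 74 counts against 0 and 2. ZNF486 had 80 and 118 counts against 0 and 0, and the pseudogene ZNF826P 212 and 216 against 0 and 0. These form adjacent pairs within a run of 10 tested genes called lower in PC3, from ZNF506 to ZNF85. The untested ZNF626 lies inside that stretch. Of the 10, ZNF506, ZNF682 and ZNF486 were not called by DESeq2. At the end of the cluster nearer the centromere ZNF429 (68 and 58 counts against 0 and 2), ZNF100 (116 and 125 against 0 and 2) and ZNF43 (66 and 43 against 0 and 0) stood side by side. Between these groups ZNF430 was higher in PC3, with 169 and 203 counts in DU145 against 363 and 381 in PC3 (log2 difference 1.11 ± 0.18, SE, adjusted p = 6.78e-05). ZNF431 was not called, at 312 and 292 counts against 297 and 338.

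In cluster H (43.5 to 44.5 Mb) 12 of 23 tested genes were lower in PC3, 2 were higher and 9 were not called. ZNF229 had the most counts of the DU145-only genes, 495 with the control plasmid and 634 with circ0003553, and 0 in both PC3 libraries, at least 175-fold higher in DU145. Its neighbour ZNF285 had 186 and 158 counts against 0 and 0. Within the same cluster ZNF223 had 264 and 219 counts against 0 and 2, and ZNF404 had 58 and 60 against 2 and 0. ZNF180, which follows ZNF229 and the barely read ZNF285B, was not called, with 585 and 635 counts in DU145 against 457 and 525 in PC3 (log2 difference −0.21 ± 0.13, SE, adjusted p = 0.182). ZNF224, a repressor of the aldolase A gene, was not called either, at 1036 and 1046 counts against 842 and 941. The promoters of ZNF229 (chr19:44448423-44448722, minus strand, 23 CG) and ZNF180 (chr19:44500473-44500772, minus strand, 31 CG), in the same form as above, show RefSeq starts of these differently read neighbours. The RefSeq start of ZNF229 shown also lies inside the span that the deposited table gives this gene, past its first bases.
ZNF229: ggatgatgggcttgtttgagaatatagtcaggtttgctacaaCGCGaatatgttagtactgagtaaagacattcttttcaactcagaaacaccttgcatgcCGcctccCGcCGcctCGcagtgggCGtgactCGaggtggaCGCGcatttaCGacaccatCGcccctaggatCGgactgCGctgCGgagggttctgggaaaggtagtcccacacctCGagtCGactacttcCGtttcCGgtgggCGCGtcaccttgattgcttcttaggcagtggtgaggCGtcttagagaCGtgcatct
ZNF180: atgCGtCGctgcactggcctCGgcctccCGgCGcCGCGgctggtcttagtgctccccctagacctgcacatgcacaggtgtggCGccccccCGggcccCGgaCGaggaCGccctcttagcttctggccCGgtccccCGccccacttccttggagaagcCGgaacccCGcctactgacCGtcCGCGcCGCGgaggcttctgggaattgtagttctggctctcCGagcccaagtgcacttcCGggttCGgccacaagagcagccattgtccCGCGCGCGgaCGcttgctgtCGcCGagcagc

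Cluster J (55.5 to 56.7 Mb) was divided by position. Its first part held a run of 6 tested genes higher in PC3, from ZNF865 to ZNF444. Of these, ZNF784 and ZNF444 were not called by DESeq2. One of the run was ZNF581 with 218 and 177 counts in DU145 against 457 and 645 in PC3 (log2 difference 1.57 ± 0.16, SE, adjusted p = 6.41e-07). After it came the pseudogene ZNF542P, with 244 and 310 counts in DU145 against 0 and 0 in PC3, at least 86.0-fold higher in DU145, then ZNF582 with 32 and 27 against 0 and 0, and ZNF583 with 136 and 138 against 0 and 0. ZNF667 was not called, at 307 and 289 counts against 286 and 311. Further along, ZNF470 had 280 and 246 counts against 2 and 2, a ratio of 123 (33.6 to 1.02e+03), and its neighbour ZNF71 was higher in PC3, with 266 and 281 against 679 and 812. ZSCAN5A, a zinc-finger gene of another name stem on the other strand whose span overlaps that of ZNF542P by 284 bases at their starts, with shared exon bases, was higher in PC3, with 203 and 164 counts against 324 and 419 (log2 difference 1.12 ± 0.17, SE, adjusted p = 3.45e-05). The genes of that head-to-head pair thus went in opposite directions.

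In cluster B, ZNF560 had 342 and 382 counts in DU145 against 0 and 2 in PC3, a ratio of 337 (60.2 to 1.34e+04). The next gene, ZNF426, was lower in PC3 without reaching 0, with 496 and 611 counts against 20 and 54, and ZNF121 after it was not called, at 1099 and 1201 against 1030 and 1088.

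Cluster K, at the end of the long arm, held mostly genes that were higher in PC3. Its 43 tested genes had a median log2 difference of 1.36, and the first 9, from ZNF264 to ZNF749, were all called higher in PC3. ZNF460 had 14 and 28 counts in DU145 against 126 and 160 in PC3, a ratio of PC3 to DU145 of 7.31 (4.60 to 12.2 on halved counts). ZNF17 had 47 and 44 counts against 234 and 310, a ratio of 6.41 (4.63 to 8.87). ZNF304, known to bring the TRIM28 corepressor to tumour suppressor genes, had 340 and 331 counts against 999 and 1238 (log2 difference 1.84 ± 0.13, SE, adjusted p = 7.18e-09). ZNF417 and ZNF587, closely related genes known to repress HERV-K elements, had 348 and 277 against 685 and 919, and 497 and 449 against 1039 and 1390. Both PC3 libraries lay above both DU145 libraries for each of these.

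The 4 genes of cluster K that were lower in PC3 stood among higher ones. ZNF418 had 215 and 196 counts in DU145 against 6 and 16 in PC3, and ZNF135 had 350 and 359 against 5 and 24. ZNF135 shares exon bases with ZSCAN18, which had 564 and 627 counts against 34 and 49. ZNF274, which binds the ends of zinc-finger genes and recruits SETDB1 there, had 858 and 965 counts against 492 and 662 (log2 difference −0.57 ± 0.12, SE, adjusted p = 7.65e-04). ZNF544 had 1475 and 1411 against 903 and 969. The promoter methylation marker of several cancers, ZNF154, was barely read in either line, at 6 and 7 counts in DU145 against 18 and 30 in PC3.

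Cluster I had a median log2 difference of 0.75. In it, 10 tested neighbours from ZNF611 to ZNF160 were called higher in PC3, of which ZNF888 was not called by DESeq2. Among them was ZNF702P, a pseudogene with 9 and 1 counts in DU145 against 143 and 161 in PC3 (ratio 32.6, 12.3 to 75.7 on halved counts; log2 difference 5.01 ± 0.41, SE, adjusted p = 6.14e-08). It was the nearest to expression in PC3 only and missed the rule through the DU145 control library, at 0.237 CPM. ZNF175, at the start of the cluster, had 131 and 137 counts in DU145 against 650 and 771 in PC3, a ratio of 5.69 (4.70 to 6.84). ZNF808, which represses MER11 elements in pancreas development, had 102 and 84 counts against 261 and 354, a ratio of 3.55. Near the start of the cluster some genes went the opposite way: ZNF350, a BRCA1-binding repressor, had 72 and 64 counts in DU145 against 8 and 20 in PC3, and ZNF614 had 195 and 133 against 19 and 20.

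Other rows inside the spans of clusters G and K were mostly called in the direction of the zinc-finger genes there, and many of these rows overlap them. In the span of cluster G, 14 of 19 other tested rows were lower in PC3 and 0 higher, and of the 9 that share no exon base with a zinc-finger gene 6 were lower and 0 higher. LINC00665, a long noncoding RNA among these, had 510 and 566 counts in DU145 against 0 and 2 in PC3. In the span of cluster K, 30 of 43 other tested rows were higher in PC3 and 5 lower, and of the 19 without shared exon bases 14 were higher and 2 lower, with a median log2 difference of 1.20. This was not so in every span. In cluster B, 3 of 4 tested rows without shared exon bases were lower in PC3 and 0 higher (median log2 difference −4.46), where 5 of the 13 tested zinc-finger genes were higher and 3 lower. In cluster D fewer such rows were called, 2 of 5 lower and 0 higher, but their median log2 difference was −1.52. There 16 of 21 zinc-finger genes were lower, with a median of −1.68, so both leaned the same way. Over all spans, the 94 tested rows without shared exon bases held 34 higher, 31 lower and a median of 0.04. Copy number was not measured, so a gain or loss of DNA over a cluster and a change in transcription cannot be told apart in these data.

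Rows of chromosome 19 under other zinc-finger name stems (ZFP, ZSCAN, ZIK and ZBTB) were lower in PC3 in 7 of 12 tested. That is 58.3%, against 32.9% of all genes, and 2 (16.7%) were higher. By the rule 0 were expressed in DU145 only. The 7 include ZFP36, an RNA-binding protein with fingers of the CCCH type, and without it 6 of 11 were lower. ZFP28 in cluster J had 239 and 231 counts in DU145 against 0 and 4 in PC3, and ZFP82 in cluster G had 224 and 249 against 2 and 4. The zinc-finger genes of other chromosomes were higher in PC3 in 77 (31.2%) and lower in 93 (37.7%) of 247 tested. The other genes of chromosome 19 were higher in 495 (38.7%) and lower in 378 (29.5%) of 1280. Over all genes tested, 33.1% were higher in PC3 and 32.9% lower. Among 23 genes of the KRAB corepressor and heterochromatin machinery, 12 were higher (52.2%) and 5 lower (21.7%). TRIM28, the corepressor itself, whose gene at bases 58544091 to 58550722 lies just past cluster K, had 3785 and 3803 counts in DU145 against 7817 and 9024 in PC3 (log2 difference 1.25 ± 0.10, SE, adjusted p = 3.54e-08), and SETDB1 had 2666 and 2491 against 675 and 889 (−1.63 ± 0.11, adjusted p = 5.23e-09). Among 16 DNA methylation genes, 6 were higher (37.5%) and 5 lower (31.25%), near the shares over all genes. The maintenance methyltransferase DNMT1 was not called (−0.06 ± 0.10, adjusted p = 0.633). The part of these regulators in the levels above was not tested.

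Against this, no zinc-finger gene of chromosome 19 was called between the circ0003553 and control plasmids. Of 236 tested, 0 passed an adjusted p of 0.05 in edgeR, where 101 of all genes did (0.465%), and 0 passed in DESeq2, which gave 90 of them an adjusted p, or in limma-voom. With so low a share over all genes, 0 of 236 does not set the zinc-finger genes apart. At an unadjusted p below 0.05 there were 13, 12 of them higher with circ0003553 (5.51%, against 8.88% of all genes), and the lowest adjusted p was 0.350. Of the 201 genes with at least 200 counts, 109 moved the same way in both lines, 69 higher and 40 lower. With 1 library in each group, a difference between the lines in the response could not be tested.

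**Figure D4:**
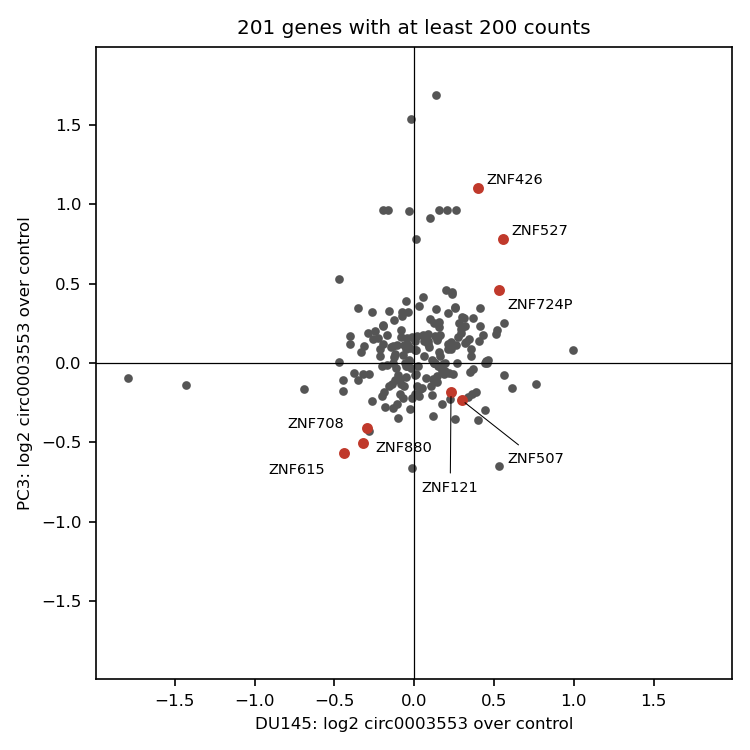
Log2 ratio of the circ0003553 to the control library in DU145 (horizontal axis) and PC3 (vertical axis), each after TMM scaling and with a prior count of 2, for the 201 genes with at least 200 counts over the 4 libraries. Most points lie near the origin and spread on all sides of it, and the red points carry their gene names.

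The genes with the largest ratio in the same direction in both lines stayed below the threshold. ZNF527 had 113 counts with the control plasmid and 156 with circ0003553 in DU145, and 40 and 84 in PC3 (log2 difference 0.65 ± 0.25, SE, adjusted p = 0.441). ZNF724P had 93 and 126 counts in DU145 against 160 and 265 in PC3, and ZNF426 had 496 and 611, and 20 and 54, ratios of 1.32 and 2.25. On the lower side ZNF615 had 135 and 92 counts in DU145 against 28 and 22 in PC3 (−0.49 ± 0.29, adjusted p = 0.692), ZNF880 had 265 and 197, and 87 and 73, and ZNF708 had 114 and 86, and 122 and 110. Within a line, the ratio passed 2-fold for 1 of 222 genes with at least 50 counts in DU145 and for 2 of 180 in PC3, against 357 of 17650 and 201 of 17363 over all genes. The first was ZNF14, at 50 counts with the control and 16 with circ0003553 in DU145 (ratio 0.344, 0.134 to 0.786 on halved counts). In PC3 these were ZNF426 (ratio 2.25, 1.05 to 5.21) and ZNF682, with 14 and 36 counts (2.14, 0.853 to 6.07). The DU145-only genes kept their pattern with both plasmids, since the rule asks for it in each library.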

How the data were processed

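Per the labels' protocols, total RNA was treated with DNase I, depleted of ribosomal RNA and made into strand-specific libraries with molecular identifiers. The build hg38, edgeR 3.12.1, Subread 1.5.1, featureCounts and Trimmomatic 0.36 are listed in the submitters' processing notes without their roles. Which aligner was used, whether counting used strand and whether identifiers were collapsed is not given in the sources used here. For each gene a whole-number count and an RPKM value were deposited by the authors. Each RPKM was found to be the count over gene length and library total, to a relative difference of 1e-09. CPM was computed here from the deposited counts.

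Columns were matched to samples by name, with NC taken as the negative control. Low counts were mostly even (70.3% to 75.3% of values from 1 to 20), so a read pair appears to have often been counted as 2. Ratios between libraries are scaled with TMM factors, and CPM and RPKM to library totals. Ratios are given with intervals (95%, exact conditional binomial) on counts halved and rounded up. These intervals and the floor of 3 counts cover counting error only.

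The counts were fitted with edgeR 4.0.16 (R 4.3.3), quasi-likelihood, in an additive model of line and plasmid with TMM scaling and filterByExpr by plasmid. This left 21731 genes, 1 residual and 13.4 prior degrees of freedom and a common coefficient of variation of 0.0972. Benjamini-Hochberg adjustment ran over all genes tested, at 0.05. Alternatives were DESeq2 1.42.0, limma 3.58.1 (voom), other scalings, no filter, halved counts, no term for the other factor, libraries left out and other limits for expression in 1 line. The fitting was checked on simulated counts.

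Genes were named by rule: those expressed in 1 line only, the 12 highest and 12 lowest called line differences at a mean log2 CPM of at least 0, the 5 highest by RPKM, the longest run in each cluster, and the 3 highest and 3 lowest plasmid ratios with the same direction in both lines. Runs were taken over tested genes, so genes that were not tested are passed over. From the genes so named a selection is printed. ZNF461, ZNF540, ZNF121, ZNF430, ZNF431, ZNF180, ZNF224, ZNF667, ZNF71, ZNF418, ZNF135, ZNF274, ZNF544, ZNF154, ZNF350, ZNF614 and others named for contrast were chosen after their values were seen. The genes described and the gene lists were chosen with earlier results of these data known. Biotypes came from GENCODE 29 by name, and promoters from RefSeq by symbol (210) or synonym (2).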

Additional observations from a re-analysis of the deposited data

Results flagged for a closer look

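ZNF121 and ZNF507 went in opposite directions with the plasmid in the 2 lines, with counting intervals (95%, on halved counts) that leave out a ratio of 1. ZNF121 had 1099 counts with the control plasmid and 1201 with circ0003553 in DU145, a ratio of 1.17 (1.04 to 1.32) after TMM scaling, and 1030 and 1088 in PC3, a ratio of 0.88 (0.778 to 0.994). ZNF507 had 2253 and 2579 counts in DU145, a ratio of 1.23 (1.13 to 1.33), and 1098 and 1121 in PC3, a ratio of 0.85 (0.755 to 0.959). These intervals cover counting error only and were not adjusted for the number of genes examined. They leave out the spread between libraries, for which the fit gave a common coefficient of variation of 0.0972. With 1 library in each group the difference between the lines was not tested, and neither gene was called between plasmids. Scaled to library totals instead, a setting added after the data were seen, the ratios were 1.14 (1.01 to 1.28) and 0.894 (0.791 to 1.01) for ZNF121, whose PC3 interval then includes 1, and 1.19 (1.10 to 1.29) and 0.865 (0.768 to 0.975) for ZNF507.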

How the results depend on the processing

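Of 85 named genes called between the lines, 66 kept their call and direction under every setting run, and none changed direction. DESeq2 lost 18 of these calls, among them ZNF486, ZNF506 and ZNF682 in cluster D, ZNF567, ZNF850, ZNF383 and ZNF527 in cluster G, ZNF888 in cluster I, and ZNF784 and ZNF444 in cluster J, and total-count scaling lost ZNF681. Leaving out 1 library at a time gave 67 to 79 genes lower and 77 to 94 higher in PC3, with the lone library assumed to vary like the others, and the PC3 circ0003553 library cost the most named calls (13). Other settings gave 61 (DESeq2) to 89 (total counts) lower and 71 (DESeq2) to 96 (no filter) higher. Without zinc-finger genes that share an exon base, 38 were lower and 39 higher, since fewer genes enter. Expressed in DU145 only were 8 of 90, against 1.67% of all genes without those left out. With limits of 0.5 and 0.05 RPKM, or the circ0003553 libraries alone, 1 gene (ZNF702P) was expressed in PC3 only. Gaps of 250000 and 1000000 bases gave 12 and 9 clusters. In the fit with no replicate block, which drops the term for the other factor, 84 were lower, 95 higher and 0 called between plasmids. That plasmid fit counts the difference between the lines as spread, so its 0 cannot check the main result. No paired analysis was possible because the labels give no replicate numbers, and line and plasmid serve as each other's block. Plasmid fits with a library left out were not run, as no residual degrees of freedom remain. Depth limits what is said of genes under 3 counts.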

Other observations

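Cluster C (11.5 to 12.6 Mb) leaned towards PC3 and held no gene expressed in 1 line only. Of 25 tested genes 12 were higher in PC3 and 5 lower, and 5 neighbours at its end, from ZNF443 to ZNF791, were higher, of which ZNF443 was not called by DESeq2. ZNF791 had 527 and 614 counts in DU145 against 1254 and 1654 in PC3 (log2 difference 1.45 ± 0.12, SE, adjusted p = 4.72e-08), while ZNF844 had 75 and 71 against 6 and 4 (−3.73 ± 0.49, adjusted p = 9.34e-06).

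Cluster E (22.6 to 24.1 Mb), next to D across a gap in the zinc-finger rows of the table, held mostly genes that were higher in PC3. Of 7 tested genes 5 were higher in PC3 and 1 lower, and ZNF91, known for repressing SVA elements, had 225 and 243 counts in DU145 against 295 and 385 in PC3. The other 5 genes of cluster E were not tested: ZNF492 had 0 and 0 counts in DU145 against 8 and 14 in PC3, and the others had at most 2 counts in a library. In cluster A, ZNF556 had 0 and 0 counts in DU145 against 12 and 14 in PC3, below 1 CPM in each. Outside the clusters, 13 genes included ZNF473, a factor of histone mRNA processing, with 220 and 304 counts in DU145 against 708 and 808 in PC3 (log2 difference 1.64 ± 0.16, SE, adjusted p = 3.94e-07).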
